A study of Homo sapiens with 9 samples.

Results

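The genes described here are 10 epithelial keratin and cell junction genes: the keratin genes KRT7, KRT8, KRT18 and KRT19, the adhesion genes CDH1 and EPCAM, the tight junction genes CLDN1 and TJP1, and the desmosome genes PKP2 and DSP. They were chosen by name, with earlier results of these data known. Every array probe annotated to them was taken, which gave 15 of the 48799 probes on the array for these 10 of 18850 named genes. Of these, 12 were tested, among 16164 tested probes in all, because they had a detection p under 0.05 on at least 3 of the 9 arrays. The tested probes cover 9 of the 10 genes. The cells were MDA-MB-231, an established line from a human breast cancer that has mesenchymal features, and RNA was taken 72 h after siRNA transfection. KD1 cells received siRNA 1 against KDM5A (also called RBP2 or JARID1A), KD2 cells received siRNA 2 against the same gene, and Luc cells received an siRNA against luciferase as the control, with 3 arrays in each group. KDM5A is a histone demethylase that acts on methylated lysine 4 of histone H3. Its own level is not analysed here, so the extent of the knockdown is not given and both groups are described by their labels.

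Epithelial cells are held together by 3 kinds of contact that these genes build. Adherens junctions carry E-cadherin, tight junctions carry claudins on a scaffold of ZO proteins, and desmosomes anchor keratin filaments to the cell border through plakophilins and desmoplakin. Keratin filaments form from pairs of a type II and a type I protein, and keratin 8 with keratin 18 is the usual pair of simple epithelia. Cells that take on mesenchymal features lower many of these genes, E-cadherin among the best known, and MDA-MB-231 cells are known to lack it.

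Between 14529 and 17538 probes were detected on an array, the fewest on KD1 replicate 3 and the most on Luc replicate 3. Pearson correlations between arrays over the tested probes, which describe array similarity only, lay between 0.985 and 0.988 within a group and between 0.961 and 0.973 across groups. On the slide the KD1 arrays took positions G, I and K, while KD2 and Luc shared positions A to F, so an effect of position and an effect of KD1 cannot be told apart. No label says whether arrays of a group came from separate cultures, so the p-values rest on the spread of these arrays alone, and that spread may be technical. In RNA from whole cultures, fewer cells expressing a gene and less RNA per cell cannot be told apart. Values below are background-corrected, quantile-normalized log2 intensities unless called deposited, and differences are on the same log2 scale. Differences on deposited normalized values are on their own scale, which is compressed at low intensities. Adjusted p-values are from limma, with Benjamini-Hochberg adjustment over all tested probes, and a call is an adjusted p under 0.05. Levels of different probes are not set against each other.

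The line was checked against its markers. VIM and CD44, known to be high in this line, were each detected on all 9 arrays by 2 probes, while ESR1 and PGR, the estrogen and progesterone receptor genes, were detected on none. These are single genes of longer lists. The luminal breast list with ESR1 and PGR had 11 probes. Of these, 5 were detected on no array and 4, from 3 genes with XBP1 among them, were tested. The mesenchymal list with VIM and CD44 had 24 probes, of which 5 were detected on no array and 16 were tested. Of the epithelial genes, CDH1 had 1 probe (ILMN_1770940), whose deposited intensities were 129, 99.6 and 114 in KD1, 116, 104 and 131 in KD2, and 122, 116 and 130 in Luc. The lowest deposited intensity of a detected probe was between 130 and 142 on the 9 arrays, and CDH1 passed detection on 0 KD1 arrays, 1 KD2 array and 1 Luc array. The groups overlapped fully, CDH1 was not tested, and neither siRNA brought its probe to detection on more than 1 array. Of the 3 DSP probes, ILMN_1655614 was detected on all 9 arrays, ILMN_1659749 on 1 KD2 array only, and ILMN_1677032 on none. Of the 2 EPCAM probes, ILMN_2160210 was detected on all 9 arrays and ILMN_2160209 on 1 KD1 array, 2 KD2 arrays and 0 Luc arrays. The remaining 9 probes were detected on every array, so the line had measurable transcript of every gene of the set except CDH1.

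**Figure D1:**
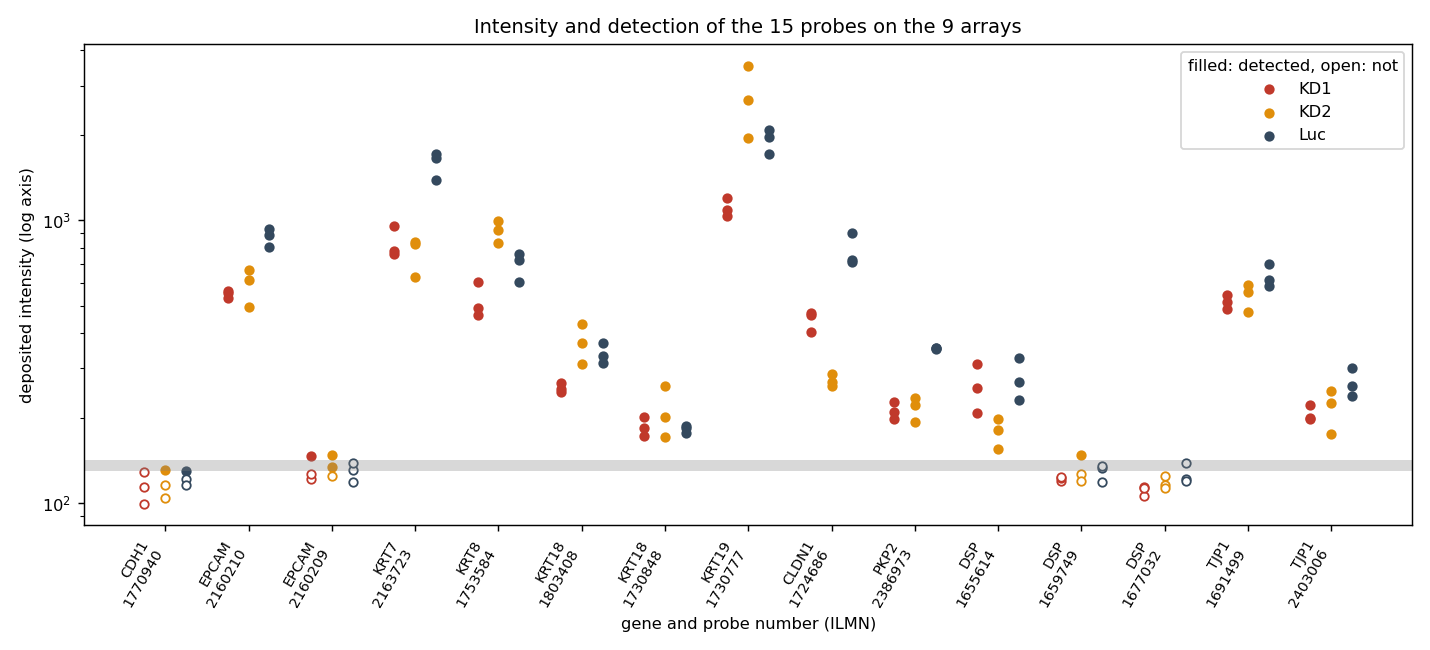
Deposited intensity (linear units, log axis) of each of the 15 probes on each array, with KD1, KD2 and Luc from left to right; open circles mark arrays where the probe was not detected and the grey band spans the lowest detected intensity per array (130 to 142). The CDH1 probe, 2 of the 3 DSP probes and 1 of the 2 EPCAM probes lie in or near the band, and the other 11 lie above it.

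With KD1, 5 of the 12 tested probes fell and 0 rose: those of KRT7, KRT19, EPCAM, CLDN1 and PKP2. That is 41.7% of the set's tested probes, against 15.4% of all tested probes called in that comparison (6.72% higher and 8.72% lower), and at an unadjusted p under 0.05 the count in the set was also 5, against 30.0% of all tested probes. The median difference was -0.29 in the set and 0.00 over all probes. With KD2, 5 probes fell (KRT7, EPCAM, CLDN1, PKP2 and DSP) and 2 rose (KRT8 and KRT19), which is 58.3% of the set against 21.4% of all tested probes (10.3% higher and 11.1% lower), with medians of -0.22 in the set and -0.00 over all probes. KRT7, EPCAM (1 of 2 probes), CLDN1 and PKP2 fell with both, 4 of 12 probes. Of all tested probes, 2.56% were called lower with both and 5.09% were called in the same direction with both. Arrays did not overlap between KD1 and Luc for 7 of the 12 probes (34.3% of all tested probes) and between KD2 and Luc for 8 (39.3% of all tested probes). The genes were chosen with earlier results of these data known, so the shares of the set here and below describe it and are no test of enrichment. The Luc arrays, 3 in all, serve both comparisons, so the values are given side by side and not as independent evidence. Single arrays bear on these counts: with KD1 the count was 3 without KD1 replicate 1, Luc replicate 1 or Luc replicate 2, and 2 without KD1 replicate 2, KD1 replicate 3 or Luc replicate 3. With KD2 it was 4 without Luc replicate 2 and 3 without KD2 replicate 3 or Luc replicate 3.

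**Figure D2:**
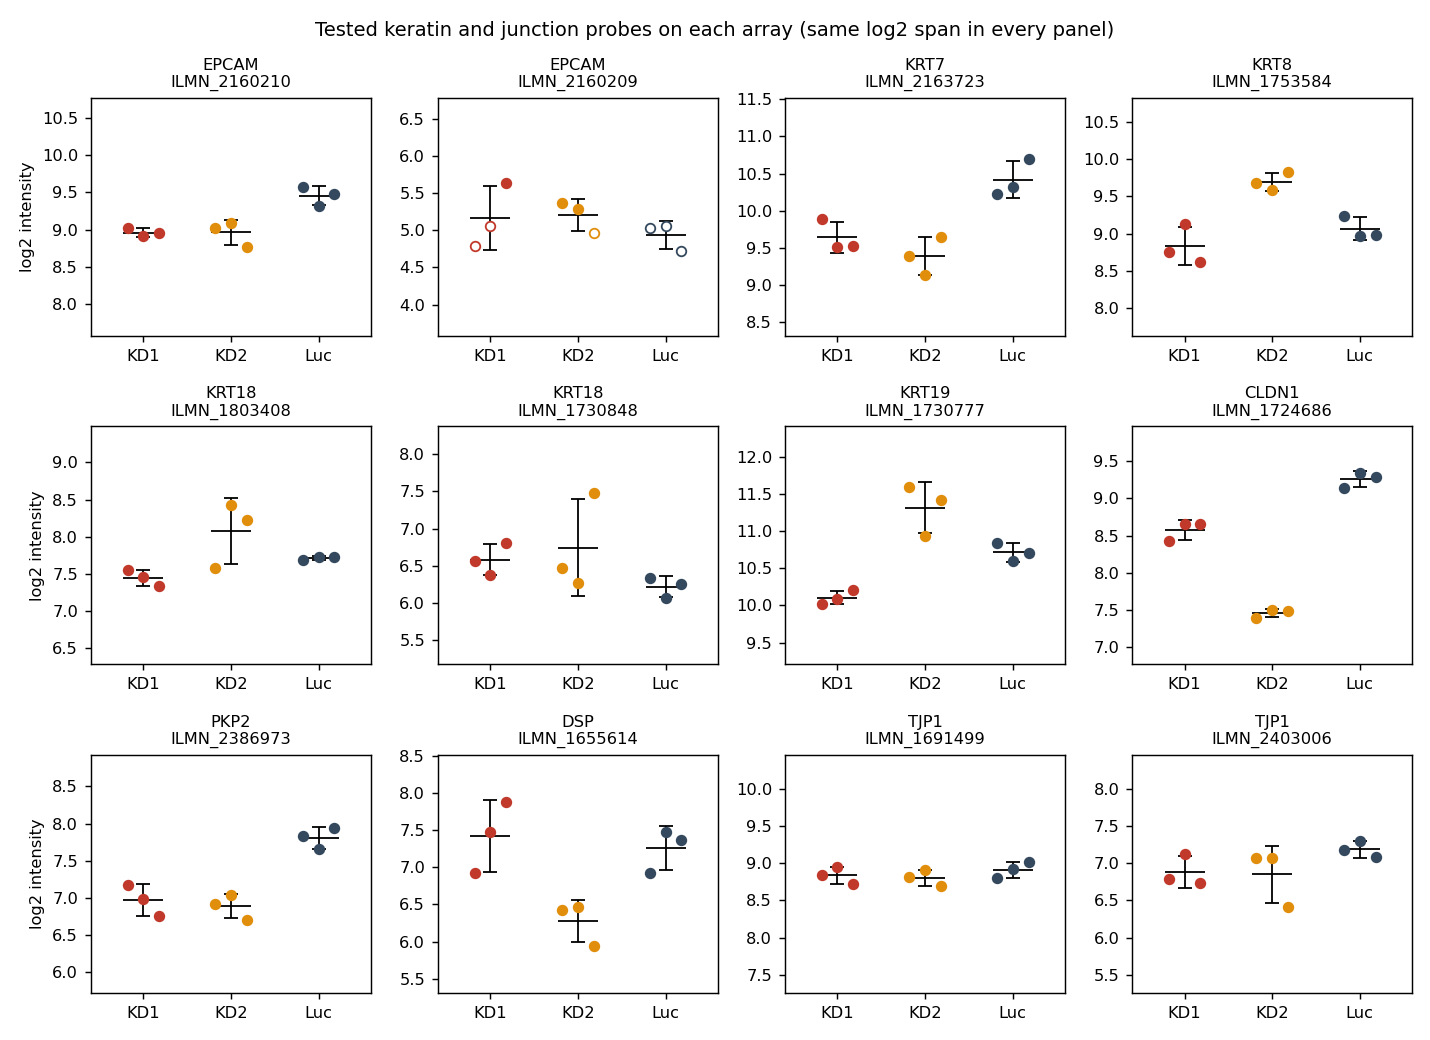
Normalized log2 intensity of each tested probe on each array, with KD1, KD2 and Luc from left to right in each panel; points are arrays, open circles are arrays without detection, and bars are the mean ± SD (n = 3). For CLDN1 the 3 groups do not overlap and KD2 is lowest, and for KRT19 they do not overlap and KD1 is lowest and KD2 highest.

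Among the keratins, KRT7, a type II keratin of simple and glandular epithelia, fell with both siRNAs. Its probe (ILMN_2163723) read 9.89, 9.52 and 9.53 in KD1, 9.39, 9.13 and 9.64 in KD2, and 10.23, 10.33 and 10.70 in Luc. Every KD1 and KD2 array lay below every Luc array, and the KD1 and KD2 arrays overlapped. The mean was 9.65 ± 0.21 in KD1, 9.39 ± 0.26 in KD2 and 10.42 ± 0.25 in Luc (SD, n = 3 each). KRT7 was 1.71-fold lower with KD1 (log2 difference -0.77, SE 0.19, adjusted p = 0.0194) and 2.04-fold lower with KD2 (-1.03, adjusted p = 0.00362). KD1 and KD2 did not differ by the test (0.26, 95% interval -0.15 to 0.67, adjusted p = 0.348). The KD1 call was lost without KD1 replicate 2 (adjusted p = 0.0591), KD1 replicate 3 (0.0652) or Luc replicate 3 (0.0647), and the KD2 call held under every alternative run.

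KRT19, a type I keratin of simple and ductal epithelia, moved in opposite directions with the 2 siRNAs. Its probe (ILMN_1730777) read 10.03, 10.08 and 10.20 in KD1, 11.59, 10.93 and 11.42 in KD2, and 10.84, 10.59 and 10.71 in Luc. No group overlapped another on this scale, with KD1 lowest and KD2 highest. On the deposited intensities KD2 replicate 2 (1961) lay within the range of the Luc arrays (1721 to 2086), and the other KD2 arrays (3522 and 2669) lay above it. KRT19 was 1.53-fold lower with KD1 (-0.61, SE 0.17, adjusted p = 0.0400) and 1.51-fold higher with KD2 (0.60, SE 0.17, adjusted p = 0.0344). The difference between KD1 and KD2 was -1.21 (SE 0.17, adjusted p = 7.99e-04), a 2.31-fold lower level in KD1, and it was called under every alternative run. The separate calls were less secure. The KD1 call was lost when any KD1 or Luc array or KD2 replicate 3 was left out (adjusted p from 0.0510 to 0.120), when arrays were scaled by their medians (0.0676) and without the detection filter (0.0755). The KD2 call was lost without KD2 replicate 1 (0.111), KD2 replicate 3 (0.102), Luc replicate 1 (0.0523), Luc replicate 2 (0.110) or Luc replicate 3 (0.0776), in a fit of KD2 and Luc alone (0.0567) and without the detection filter (0.0667).

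KRT8, the type II partner of keratin 18, rose with KD2 and was not called with KD1. Its probe (ILMN_1753584) read 8.76, 9.13 and 8.62 in KD1, 9.68, 9.58 and 9.82 in KD2, and 9.24, 8.97 and 8.98 in Luc. All KD2 arrays lay above all others, and KD1 overlapped Luc. The KRT8 probe was 1.55-fold higher with KD2 (0.63, SE 0.16, adjusted p = 0.0188), a call lost without KD2 replicate 3 (0.0658), Luc replicate 2 (0.0685) or Luc replicate 3 (0.0581). With KD1 the KRT8 difference was -0.23 (95% interval -0.59 to 0.13, adjusted p = 0.386). KD1 against KD2 gave -0.86 for KRT8 (SE 0.16, adjusted p = 0.00334), a 1.82-fold lower level in KD1.

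KRT18, the type I partner, lies next to KRT8 on chromosome 12 and had 2 probes. Probe ILMN_1803408 read 7.55, 7.46 and 7.34 in KD1, 7.58, 8.43 and 8.22 in KD2, and 7.69, 7.73 and 7.73 in Luc. KD1 lay below both other groups, and KD2 straddled Luc because KD2 replicate 1 lay below it. Neither siRNA gave a call against Luc for this KRT18 probe (-0.27 with KD1, adjusted p = 0.412, and 0.36 with KD2, adjusted p = 0.231). Without KD2 replicate 1 the KD2 difference was 0.61 (adjusted p = 0.0206). KD1 was lower than KD2 for it (-0.63, SE 0.20, adjusted p = 0.0409), the direction of the KRT8 and KRT19 differences. That KRT18 call was lost when any array except KD2 replicate 1 was left out (adjusted p from 0.0558 to 0.139), without the detection filter (0.0836) and in a fit of KD1 and KD2 alone (0.0796). On the deposited normalized values the difference for this KRT18 probe was -0.34. The second KRT18 probe, ILMN_1730848, read 6.38 to 6.81 in KD1, 6.27 to 7.48 in KD2 and 6.07 to 6.34 in Luc, and was not called in any comparison (0.37 with KD1, 0.52 with KD2 and -0.16 for KD1 against KD2). The RefSeq gene table lists 52 pseudogenes named for KRT8, 68 for KRT18 and 5 for KRT19. A probe could read transcripts of such near-identical copies, and their part in these values was not tested.

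EPCAM, a homophilic adhesion molecule of the epithelial surface, fell by nearly the same amount with both siRNAs on its bright probe. Probe ILMN_2160210 read 9.02, 8.91 and 8.95 in KD1, 9.02, 9.09 and 8.77 in KD2, and 9.57, 9.32 and 9.48 in Luc. Every KD1 and KD2 array lay below every Luc array. EPCAM was 1.41-fold lower with each siRNA (log2 difference -0.50 with KD1, adjusted p = 0.0340, and -0.50 with KD2, adjusted p = 0.0263, SE 0.14 for both). KD1 against KD2 was -0.00 (95% interval -0.30 to 0.30). The KD1 call was lost when any 1 of the 6 KD1 and Luc arrays was left out (adjusted p from 0.0507 to 0.105) and without the detection filter (0.0584). The KD2 call was lost without KD2 replicate 1 (0.0502), KD2 replicate 3 (0.0935), Luc replicate 1 (0.0840) or Luc replicate 3 (0.0658). The dim probe ILMN_2160209, not well above background on any Luc array, was not called (adjusted p = 0.535 with KD1 and 0.423 with KD2). Luc has only a bound there, so its differences (0.23 with KD1 and 0.27 with KD2) are not read as sizes. This dim probe did not show the fall of the bright probe.

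CLDN1, a claudin that seals tight junctions, had the largest change of the set. Its probe (ILMN_1724686) read 8.42, 8.65 and 8.66 in KD1, 7.39, 7.50 and 7.49 in KD2, and 9.13, 9.34 and 9.29 in Luc. The 3 groups were separate, with KD2 lowest and KD1 between KD2 and Luc. The mean was 8.57 ± 0.13 in KD1, 7.46 ± 0.06 in KD2 and 9.25 ± 0.11 in Luc (SD, n = 3 each). CLDN1 was 1.60-fold lower with KD1 (-0.68, SE 0.13, adjusted p = 0.00617) and 3.47-fold lower with KD2 (-1.80, SE 0.13, adjusted p = 3.64e-05). By absolute size the KD2 difference ranked 69 of 16164 tested probes and the KD1 difference ranked 1776. KD1 was 2.17-fold higher than KD2 (1.12, SE 0.13, adjusted p = 2.10e-04). All 3 calls held under every alternative run. The deposited normalized values carry no background correction of this kind and are on another scale. On them the KD2 difference for CLDN1 was -1.12 and the KD1 against KD2 difference 0.63.

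TJP1, which encodes the scaffold protein ZO-1 under the claudins, was not called with either probe. Probe ILMN_1691499 read 8.84, 8.95 and 8.72 in KD1, 8.81, 8.91 and 8.70 in KD2, and 8.80, 8.92 and 9.02 in Luc, and all groups overlapped. Its difference was -0.07 with KD1 (95% interval -0.36 to 0.21) and -0.10 with KD2 (-0.39 to 0.18). Probe ILMN_2403006 gave wider intervals, with -0.30 for KD1 (95% interval -0.74 to 0.13) and -0.34 for KD2 (-0.77 to 0.10). Its highest KD2 array (7.07) lay just below its lowest Luc array (7.08), a separation found for 39.3% of all tested probes with KD2. For TJP1, a change of the size seen in CLDN1 with KD2 (-1.80) lies outside the intervals of both probes. The intervals of ILMN_2403006 do include -0.50, the EPCAM difference with each siRNA.

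PKP2, the plakophilin that links desmoplakin to desmosomal cadherins, fell with both siRNAs to a like extent. Its probe (ILMN_2386973) read 7.17, 6.99 and 6.76 in KD1, 6.92, 7.04 and 6.71 in KD2, and 7.83, 7.65 and 7.94 in Luc. The KD1 and KD2 arrays overlapped each other and lay below every Luc array. PKP2 was 1.78-fold lower with KD1 (-0.84, SE 0.16, adjusted p = 0.00581) and 1.89-fold lower with KD2 (-0.92, SE 0.16, adjusted p = 0.00270), and both calls held under every alternative run. KD1 against KD2 was 0.08 (95% interval -0.26 to 0.43). The size depends on the processing. Without background correction the PKP2 differences were -0.52 with KD1 and -0.57 with KD2. On the deposited normalized values, whose scale also differs, they were -0.38 and -0.41.

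DSP, which encodes the desmoplakin that ties desmosomes to keratin filaments, fell with KD2 and was not called with KD1. Probe ILMN_1655614 read 6.92, 7.47 and 7.88 in KD1, 6.42, 6.46 and 5.95 in KD2, and 6.92, 7.48 and 7.37 in Luc. All KD2 arrays lay below the others, and KD1 spanned the Luc range and beyond it. DSP was 1.97-fold lower with KD2 (-0.98, SE 0.25, adjusted p = 0.0207), a call lost without KD2 replicate 3 (0.0757), Luc replicate 2 (0.0765) or Luc replicate 3 (0.0631). With KD1 the DSP difference was 0.17 (95% interval -0.39 to 0.73, adjusted p = 0.713). KD1 was 2.21-fold higher than KD2 for DSP (1.14, SE 0.25, adjusted p = 0.00831). On the deposited normalized values the DSP difference was -0.34 with KD2 and 0.42 for KD1 against KD2, and without background correction -0.51 and 0.62.

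**Figure D3:**
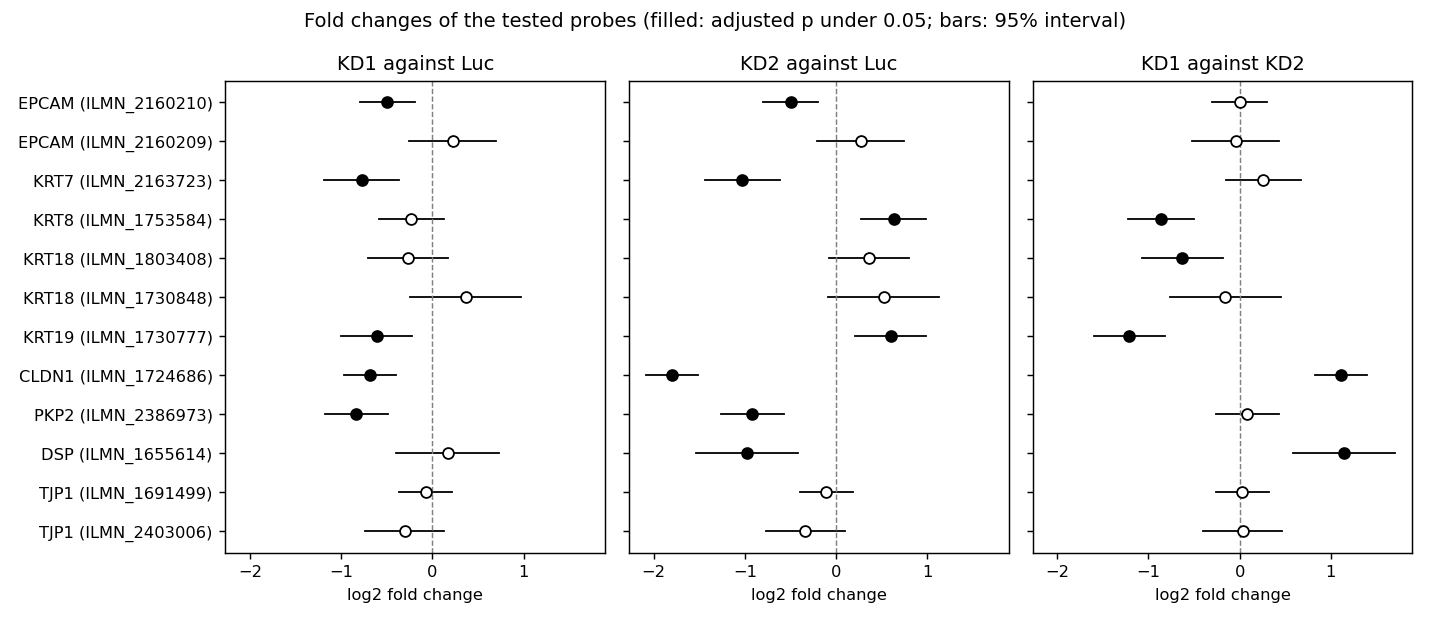
Log2 difference of each tested probe for KD1 against Luc, KD2 against Luc and KD1 against KD2, with 95% intervals from limma. CLDN1 with KD2 (-1.80) is the largest change, KRT7, EPCAM, CLDN1 and PKP2 lie below 0 with both siRNAs, and KRT19 lies at -0.61 with KD1 and 0.60 with KD2.

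The start regions of CLDN1 and DSP are shown because these were the 2 genes of the set called higher in KD1 than in KD2. The windows run from 250 bases before to 50 after the start given by RefSeq (GRCh38.p14), which held windows for 4 of the 10 genes (CLDN1, DSP, KRT8 and TJP1). Capitals mark the letters of 2 motifs, read on both strands: CACCTG, an E-box bound by ZEB and SNAIL factors, and CCGCCC, whose complement GGGCGG is the GC box of SP1 and which was reported for the DNA-binding domain of KDM5A in vitro.
CLDN1, chr3:190322397-190322696, minus strand: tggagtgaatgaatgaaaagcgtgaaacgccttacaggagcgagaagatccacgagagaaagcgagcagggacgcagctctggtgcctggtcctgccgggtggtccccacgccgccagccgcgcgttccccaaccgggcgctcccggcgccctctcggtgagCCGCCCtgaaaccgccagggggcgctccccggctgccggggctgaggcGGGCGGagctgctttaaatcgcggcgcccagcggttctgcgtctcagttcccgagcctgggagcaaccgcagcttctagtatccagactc
DSP, chr6:7541421-7541720, plus strand: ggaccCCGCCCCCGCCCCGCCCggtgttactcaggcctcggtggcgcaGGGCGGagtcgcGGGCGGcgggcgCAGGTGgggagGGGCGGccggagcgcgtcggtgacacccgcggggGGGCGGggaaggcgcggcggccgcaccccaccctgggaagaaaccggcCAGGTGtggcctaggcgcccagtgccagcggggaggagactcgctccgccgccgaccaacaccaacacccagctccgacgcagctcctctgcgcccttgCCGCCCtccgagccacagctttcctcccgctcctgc
The CLDN1 window held 2 matches to CCGCCC and 0 to CACCTG, and the DSP window held 8 and 2, of which 1 neighbouring pair of CCGCCC matches overlaps. The window of KRT8, called with KD2 and lower in KD1 than in KD2, held 0 matches to either motif. TJP1 was called in no comparison. Its windows held 3, 3, 1 and 0 matches to CCGCCC and, in the same order, 1, 0, 0 and 0 to CACCTG. A link between matches and changes in level was not tested. Of 35116 windows of the same length, 45.0% held CCGCCC and 20.6% held CACCTG. The GC content was 67.0% for CLDN1 and 77.0% for DSP, against a median of 58.7% over all windows. A match is a description of the letters and not a bound site.

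Set against each other, KD1 and KD2 differed for 5 of the 12 tested probes, 41.7%, while 25.7% of all tested probes were called in that comparison (12.4% higher and 13.3% lower in KD1). The same 5 were the probes whose KD1 and KD2 arrays did not overlap, a separation found for 41.1% of all tested probes. KRT8, KRT18 (1 of 2 probes) and KRT19 were lower in KD1 than in KD2, and CLDN1 and DSP were higher. The 3 keratins that were lower in KD1 are those of simple epithelia, and KRT7, of the same tissue type, did not differ by the test. The probe whose 3 group means were most like those of CLDN1, each taken relative to its own mean, was a probe of TNC, the matrix protein tenascin C (ILMN_1719759, root mean square difference 0.027 over 3 group means). It was at -0.75 with KD1 and -1.82 with KD2, while a second TNC probe was at -0.07 (adjusted p = 0.810) and -0.95. The next most like was a probe of SLC39A6 (0.038), at -0.62 with KD1 (adjusted p = 0.0822) and -1.70 with KD2. Its second probe was at -0.51 (adjusted p = 0.104) and -1.71. Each other gene of the set called against Luc had a closer nearest match, from 0.00088 for EPCAM to 0.021 for KRT7. A nearest match this close is therefore not particular to CLDN1, and the nearest matches of those other genes were not TNC probes.

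**Figure D4:**
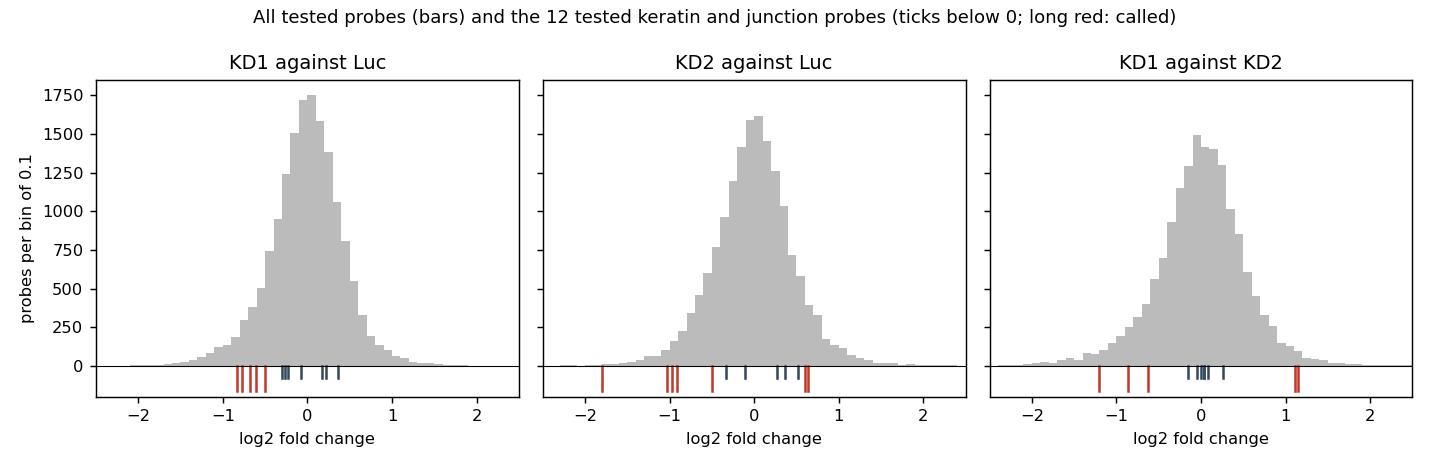
Log2 differences over all 16164 tested probes in each of the 3 comparisons, as the number of probes per bin of 0.1 (grey), with the 12 tested keratin and junction probes as ticks below 0 (long red where called). With KD2 the CLDN1 probe at -1.80 lies in the far lower tail, and with KD1 all 12 lie between -0.84 and 0.37.

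Other genes of the same structures were counted from lists chosen by function, with earlier results of these data known. Over all tested probes, 6.72% were called higher and 8.72% lower with KD1, and 10.3% higher and 11.1% lower with KD2. The counts of this and the following paragraphs stand beside those shares, and no list was tested as a set. Of 7 tested probes of other keratins, 1 fell with KD1 and 3 with KD2, and 0 rose with either. KRT80, a type II keratin found in many epithelia, fell with both (-0.59 and -0.89), and its second probe was at -0.33 with KD1 (adjusted p = 0.156) and -0.54 with KD2 (adjusted p = 0.0232). KRT10, a keratin of differentiated epidermis, was at 0.08 with KD1 (adjusted p = 0.766) and fell by 0.66 with KD2. KRT5 and KRT14, the basal keratin pair, were not detected on any array.

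Other tight junction genes had 21 tested probes, of which KD1 raised 1 and lowered 3 and KD2 raised 4 and lowered 1. PALS1, a polarity scaffold, was 2.56-fold lower with KD1 (-1.36, adjusted p = 0.00133), and the KD2 difference of 0.31 missed the threshold (adjusted p = 0.281), and KD1 was 1.66 below KD2. CLDN15 was at 0.20 with KD1 (adjusted p = 0.567) and fell by 1.01 with KD2. CLDN23 fell with KD1 (-1.11) and just missed the threshold with KD2 (-0.44, adjusted p = 0.0501). CLDN14 was at 0.63 with KD1 (adjusted p = 0.0977) and rose with KD2 (0.79). Neither OCLN probe, for the tight junction protein occludin, was detected on any array.

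Of 9 tested probes of other desmosome genes, 2 fell with KD1 and 1 with KD2, and 0 rose. EVPL, which encodes the plakin envoplakin, fell with KD1 (-0.66) and was at 0.28 with KD2 (adjusted p = 0.169). For DSC2, a desmosomal cadherin, probe ILMN_1663119 was not well above background on any KD1 array and was at least 1.12-fold lower with KD1 than Luc (adjusted p = 0.0402). The other DSC2 probe, ILMN_2381257, was detected on 2 KD1, 0 KD2 and 0 Luc arrays and was not tested, so the DSC2 probes did not show the same direction. A PKP4 probe was at -0.01 with KD1 (adjusted p = 0.964) and fell by 0.90 with KD2, and the other PKP4 probe was not called.

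Other adherens junction genes had 18 tested probes, of which KD1 raised 1 and lowered 3 and KD2 raised 1 and lowered 4. A probe of AJUBA, a LIM protein at cadherin contacts, fell with KD1 (-1.16) and with KD2 (-2.44, detected on 1 of 3 KD2 arrays), and a second AJUBA probe was at 0.14 and -0.66 and not called with either. Both probes of NECTIN3, an immunoglobulin-like adhesion molecule, fell with KD1 (-0.77 and -0.80) and were at -0.19 and -0.22 with KD2, not called. Of 6 tested gap junction probes, that of GJA1 (connexin 43) fell with KD1 (-0.41, adjusted p = 0.0488). Of 7 tested probes of other epithelial surface genes and regulators, SPINT2, a membrane protease inhibitor, fell with KD1 (-0.53), and with KD2 EHF rose (0.69). MUC1 probe ILMN_1756992 fell with KD2 (at least 1.52-fold, not well above background on any KD2 array), while MUC1 probe ILMN_1677314, not tested, was detected on 2 KD2, 0 KD1 and 0 Luc arrays. Probes of the epithelial regulators ESRP1, GRHL2, OVOL1, OVOL2 and ELF3 were not detected on any array.

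**Figure D5:**
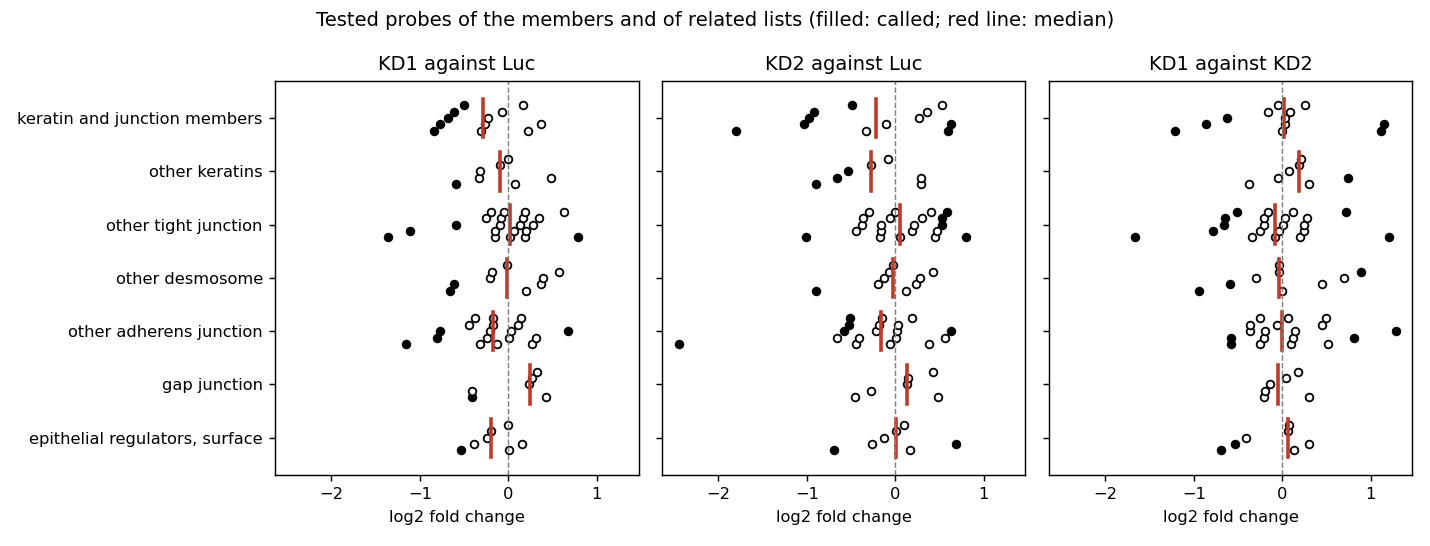
Log2 difference of each tested probe of the keratin and junction set and of related lists, in each of the 3 comparisons; filled circles are called probes, open circles are not, and the red line is the list median. The medians of the set are -0.29 with KD1 and -0.22 with KD2, and those of the related lists lie between -0.27 and 0.25 in the same 2 comparisons.

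Markers of other states and cells were read beside these values. Mesenchymal genes had 16 tested probes, of which KD1 lowered 2 and raised 0 and KD2 raised 1 and lowered 2. Over all tested probes, 15.4% were called with KD1 and 21.4% with KD2. Both AXL probes fell with KD1 (-0.64 and -0.71). The VIM, ZEB1 and SNAI2 probes were not called with either. The leukocyte list, which also holds the haemoglobin gene HBB, had 18 probes, of which 10 were detected on no array. Among these were those of CD3E, ITGAM and HBB, and no PTPRC probe was detected on more than 1 array. The 4 tested probes were 3 of CD68, which rose with both siRNAs (0.93, 1.18 and 0.80 with KD1, and 0.62, 0.95 and 0.94 with KD2), and 1 of CD14, which fell with KD1 (-1.15). The summed deposited intensity of the list was 5534 to 5569 in KD1, 4849 to 5906 in KD2 and 4047 to 4744 in Luc. Of the 16 probes of fibroblast and endothelial genes, 3 were tested, with summed intensities of 1847 to 1948 in KD1, 1942 to 2091 in KD2 and 1969 to 2043 in Luc. The part of these markers in the keratin and junction values was not tested.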

How the data were processed

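Illumina bead arrays, 3 each for KD1, KD2 and Luc, measured RNA of MDA-MB-231 cells. The deposited intensities are linear signals per probe with no background subtraction or normalization, as the values show. A detection p-value stands beside each, per the file headers. The deposited series values are near log2 and quantile-normalized, as the values show, and the submitters' processing notes name lumi. The sources used here do not give its version, the scanner or the export software. Columns left unused numbered 0.

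The intensities were read in limma 3.58.1 (R 4.3.3). Function neqc subtracted the background inferred from detection p-values with offset 16, then applied quantile normalization and log2. A probe was tested, on its own, if at least 3 arrays had detection p under 0.05 (16164 probes). The lmFit and eBayes functions were run on all 9 arrays (6 residual degrees of freedom), two-sided. With 3 arrays in each of 2 groups an exact permutation p cannot be under 0.1, so none was computed. A group with detection on no array has only a bound, set by each array's lowest detected signal on the normalized scale.

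Probe symbols are those of the platform annotation, brought up to date by Entrez identifier with the RefSeq gene table of GRCh38.p14. Of 48799 probes, 28094 had 1 symbol, 13 several and 20692 none. The genes and lists were chosen with earlier results of these data known. Besides the 10 genes, up to 4 called genes of each of the 10 other lists are named, by largest change.

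On simulated data for KD1 against Luc over 16164 probes, 4.48% of 67 changes of 0.5, 58.2% of 67 of 1 and 98.5% of 66 of 2 (log2) were recovered, with 7 false calls. The other 15964 simulated probes were unchanged, while 15.4% of all tested probes were called with KD1. The adjustment is stricter when fewer probes change, so the recovered shares need not hold for these data. Alternatives were the deposited values, no background correction, median scaling, an offset of 50, other detection filters, 1 probe per gene, 2-group fits, a replicate block and each array left out.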

Additional observations from a re-analysis of the deposited data

Results flagged for a closer look

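For 5 probes the change against Luc differed between the 2 siRNAs, as tested directly by KD1 against KD2 in limma. The KD1 minus KD2 difference was -0.86 for KRT8 (between -1.01 and -0.65 over the alternatives run), -0.63 for KRT18 probe ILMN_1803408 (between -0.88 and -0.34), -1.21 for KRT19 (between -1.40 and -1.07), 1.12 for CLDN1 (between 0.63 and 1.19) and 1.14 for DSP (between 0.42 and 1.39). The alternatives include the deposited normalized values, which are on another scale. All 3 KD1 arrays lay on one side of all 3 KD2 arrays for each of these 5 probes, a separation found for 41.1% of all tested probes in that comparison. The KD1 arrays alone occupied slide positions G, I and K, and position cannot be told apart from KD1 here.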

How the results depend on the processing

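Of 36 differences of the keratin and junction probes, 17 were called. Under the alternatives run, 9 of these kept the call in all, 8 lost it in at least 1 (KRT7, KRT19 and EPCAM with KD1, KRT8, KRT19, EPCAM and DSP with KD2, and KRT18 for KD1 against KD2), and 0 changed direction. On the deposited normalized values all 17 were called, at 34.9% to 93.0% of the size. That scale is compressed at low intensities, so these shares do not measure smaller log2 changes. Called probes of the set with KD1 numbered 3 without the detection filter, which enlarges the number of tests, against 5. With 1 array left out, the set's calls were 2 to 5 with KD1, 3 to 7 with KD2 and 4 to 5 for KD1 against KD2. Over all probes they were 1567 (without Luc replicate 2) to 2371 with KD1, against 2497. Median scaling gave 1386 higher and 1191 lower probes with KD1, against 1087 and 1410.

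Uncalled differences that crossed 0 with 1 array left out were, with KD1, EPCAM ILMN_2160209 (-0.011 to 0.41) and DSP (-0.060 to 0.42), and, for KD1 against KD2, EPCAM ILMN_2160210 (-0.097 to 0.064), EPCAM ILMN_2160209 (-0.28 to 0.14), KRT18 ILMN_1730848 (-0.40 to 0.21), PKP2 (-0.018 to 0.19) and the TJP1 probes (-0.024 to 0.089 and -0.19 to 0.14). Median scaling turned the EPCAM values of KD1 against KD2 to 0.0064 and 0.043. The cause was not tested.

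No label says whether replicate numbers pair the arrays, and 3 arrays per group cannot settle it. Correlations of deviations from the group means were -0.02 to 0.11 for same-numbered arrays of different groups. For differently numbered arrays they were -0.09 to 0.06. A replicate block gave 2256, 3269 and 3906 calls with KD1, with KD2 and for KD1 against KD2, and 4, 7 and 4 in the set, without EPCAM for KD1 against Luc (adjusted p = 0.0513) and KRT18 for KD1 against KD2 (0.0534). Dim probes (CDH1, 2 of DSP, 1 of EPCAM) are limited by signal over background.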

Other observations

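Some genes of the marker and adherens junction lists also changed with 1 siRNA or both. EGFR, a growth factor receptor gene, was at -0.17 with KD1 (adjusted p = 0.496) and fell by 1.61 with KD2 on its bright probe (ILMN_1798975), while a dim EGFR probe was not called. FN1, which encodes fibronectin, was detected by probe ILMN_2366463 on all 3 KD2 arrays and on 0 KD1 and 0 Luc arrays, and was at least 1.61-fold higher with KD2 than Luc (limma adjusted p = 0.00496). Of 4 tested probes of luminal breast genes, 2 fell with KD1 and 2 with KD2. Over all tested probes, 8.72% were called lower with KD1 and 11.1% with KD2. The 2 luminal probes that fell were those of XBP1, a transcription factor of the secretory pathway. They were at -0.70 and -0.81 with KD1 and -0.43 and -0.69 with KD2. PDGFRB rose by 1.32 with KD2, and with KD1 it was not well above background on any array and was not called (adjusted p = 0.0870). CTNNB1, which encodes beta-catenin, rose with KD2 on 1 probe (0.63) and was at 0.56 on another (adjusted p = 0.0618). A dim probe of CTNND1, which encodes p120-catenin, rose with KD1 (0.67), and another was not called.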
